A study of Drosophila melanogaster with 6 samples.

Results

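The gene grh (Grainyhead) lent its driver to the DamID experiment described here, and all peaks at it were mapped in the 4 deposited peak lists. Grainyhead is a transcription factor that, in Drosophila, switches on barrier and repair genes in the epidermis, and it is also the last factor in a temporal series through which embryonic neural stem cells (NSCs) pass. Larval NSCs keep making it, and there it acts in proliferation and, with Hox factors, in the timing of NSC death. The gene was chosen by earlier results on these lists, in which it held one of the strongest regions found in all of them. The number, position, height and rank of its peaks are therefore a description, with no test against Dam alone. Peaks were assigned when they shared at least 1 bp with the span of grh (dm6, 2R, 17801132 to 17842820, 41.7 kb) or with 1 kb on either side. That gave 29 peaks of the 95996 in the 4 lists, at 1 of the 17684 genes placed on the 6 chromosome arms.

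In DamID, a protein of interest is fused to the bacterial methylase Dam, DNA near the bound protein gains methyl groups on the adenine of GATC, and the enzyme DpnI, which cuts only methylated GATC, lets that DNA be amplified and sequenced. The groups were Dam-Simba2 and Dam-Simba1, which carry the microproteins Simba2 and Simba1, and Dam without a partner as the control. Each group had 1 larval brain library in each of 2 batches, and both fusions of a batch were called against the same Dam library. Embryos were collected for 4 h in every sample. All 3 transgenes were expressed from grh-Gal4 with the temperature-sensitive repressor tub-Gal80ts. This repressor blocks Gal4 at 18 °C (44 h) and releases it at 29 °C (24 h). Methylation therefore comes from cells in which this driver is active, which the labels call NSCs, whereas the dissected tissue was the brain. The labels do not name the piece of grh that drives Gal4 or the site of the transgenes, and all 3 groups carry the driver. Reads from the native gene and from any grh DNA in the driver cannot be told apart in these lists. Gal4 lines of this kind are made to report regulatory DNA of grh, on which basis the locus is taken as active in the assayed cells; RNA was not measured.

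After filtering, the lists rested on 1069703 and 1267661 reads for Dam-Simba2 (batches 1 and 2), 1191497 and 1506081 reads for Dam-Simba1, and 868080 and 1321104 reads for Dam. The deposited pileup is the number of extended reads over a peak's summit after scaling to the smaller library, and dividing by that scale returned whole reads for 100% of peaks within 0.05. Coverage is also given as RPM, the reads over a summit per 1000000 reads of the library. Intervals on reads are exact 95% Poisson intervals; they cover counting error only, and a summit is by construction the highest point of its peak. The Dam background (lambda) is the local control level that MACS set against the pileup, and need not equal the Dam reads over the summit. For the peak at 17831828 in Dam-Simba2 batch 1 it was 4.69, not a whole number, though that Dam library was not scaled. Folds, q values and ranks are those of the authors' MACS lists and are compared within a list only.

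Peaks at grh lay inside the gene and none reached a neighbour. The 29 peaks joined into 16 regions, of which 2 had a peak in all 4 lists, 1 in 3 lists, 5 in 2 lists and 8 in a single list. The region for which grh was chosen is among the 2. On the 6 arms, 2492 of 55460 joined regions had a peak in all 4 lists. Dam-Simba2 had 8 peaks in batch 1 and 13 in batch 2, and Dam-Simba1 had 6 in batch 1 and 2 in batch 2. The first region began 1.32 kb inside the lower-coordinate end of the span, and 6.37 kb at the upper end were empty. Neither 1 kb flank held a peak. Between regions, the longest stretch without a peak in any list ran for 6.30 kb (17825525 to 17831827) and ended at the strongest region.

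**Figure D1:**
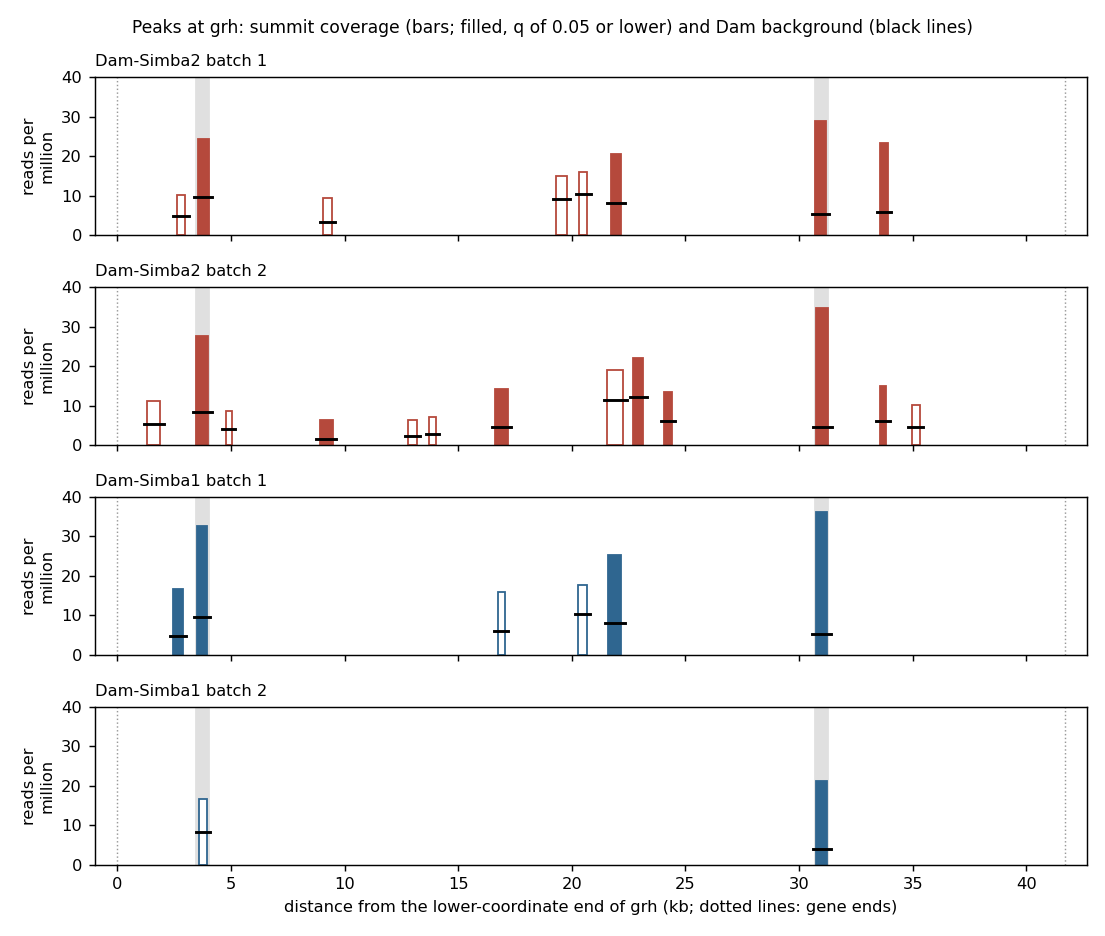
Each bar is a peak at grh, drawn from its start to its end against distance from the lower-coordinate end of the gene (kb); its height is the number of reads over the summit in RPM (per 1000000 reads), and a filled bar has a q of 0.05 or lower. Black lines give the Dam background (lambda) set for that summit, in RPM, which need not equal the Dam reads over it. Grey bands mark the 2 regions with a peak in all 4 libraries. The band near 31 kb holds the highest bar in each library.

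The strongest region lay in the upper part of the gene, at 17831828 to 17832411 (584 bp). Its peak at 17831828 to 17832310 in Dam-Simba2 batch 1 had 31 reads over the summit (21.1 to 44.0), and the one at 17831876 to 17832411 in Dam-Simba2 batch 2 had 44 (32.0 to 59.1). Dam-Simba1 batch 1 had 43 reads (31.1 to 57.9) at 17831863 to 17832368, and Dam-Simba1 batch 2 had 32 (21.9 to 45.2) at 17831873 to 17832370. No other peak at grh had as many reads in its library. The deposited pileups, which are scaled, were 25.16 and 44 for Dam-Simba2 and 31.33 and 28.07 for Dam-Simba1 (batches 1 and 2).

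Scaled to library size, coverage at this region was 29.0 and 34.7 RPM in Dam-Simba2 and 36.1 and 21.2 in Dam-Simba1 (batches 1 and 2). The intervals of the 4 libraries overlapped, from 19.7 to 41.1 and 25.2 to 46.6 in Dam-Simba2 to 26.1 to 48.6 and 14.5 to 29.99 in Dam-Simba1. The fusions did not separate at this region: Dam-Simba1 had both the highest and the lowest value. The Dam background was 5.40 and 4.54 RPM at the Dam-Simba2 summits and 5.36 and 3.97 at the Dam-Simba1 summits. Coverage was thus 5.37 and 7.64 times the Dam background in Dam-Simba2, and 6.73 and 5.35 times in Dam-Simba1. The region was chosen for its strength and reads were taken at summits, so these ratios are a description and not a test.

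In each list this peak stood near the top. By -log10 q it ranked 527 of 22479 in Dam-Simba2 batch 1 and 23 of 35237 in Dam-Simba2 batch 2. In Dam-Simba1 it ranked 81 of 17254 in batch 1 and 59 of 21026 in batch 2. As shares of the list these are the top 2.34% and 0.0653% for Dam-Simba2 and the top 0.469% and 0.281% for Dam-Simba1. Among peaks of chromosome arm 2R alone, it was number 97 of 4151 and 6 of 6626 in Dam-Simba2, and number 16 of 3174 and 9 of 3865 in Dam-Simba1. Its q was 1.7e-08 and 3.05e-20 in Dam-Simba2 and 1.48e-12 and 8.07e-09 in Dam-Simba1.

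The rank depended on which column was sorted. By fold, which was 4.60 and 6.66 in Dam-Simba2 and 5.72 and 4.65 in Dam-Simba1, the peak ranked 1596 and 176 in Dam-Simba2 and 426 and 799 in Dam-Simba1. By pileup it ranked 1277 and 593 in Dam-Simba2 and 488 and 155 in Dam-Simba1. In all 4 lists the peak stood further up by q than by fold or pileup.

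**Figure D2:**
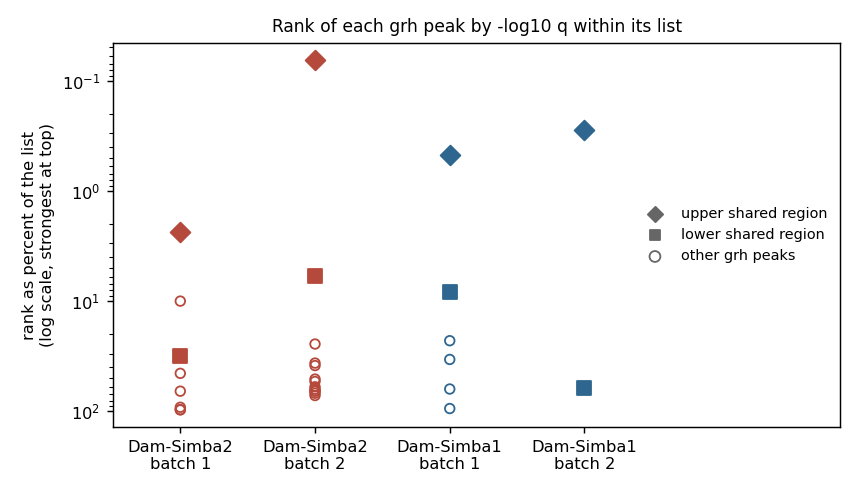
Each symbol is a grh peak at its rank by -log10 q, given as percent of the peaks in its list on a log axis with the strongest at the top. Diamonds mark the region at 17831828 to 17832411, which lies in the top 2.34% of every list, squares the other region found in all 4 lists, and open circles the remaining peaks.

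The other region with a peak in all 4 lists lay near the lower-coordinate end, at 17804609 to 17805155 (547 bp), 3.48 to 4.02 kb inside the span. It had 26 reads over the summit (17.0 to 38.1) in Dam-Simba2 batch 1 and 35 (24.4 to 48.7) in Dam-Simba2 batch 2. Dam-Simba1 had 39 reads (27.7 to 53.3) in batch 1 and 25 (16.2 to 36.9) in batch 2. Here the Dam background was higher, at 9.64 and 8.33 RPM in Dam-Simba2 and 9.57 and 8.33 in Dam-Simba1. Folds were 2.36 and 3.12 in Dam-Simba2 and 3.16 and 1.91 in Dam-Simba1, with q values of 0.00676 and 3.76e-07, and 1.17e-05 and 0.123.

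This region therefore passed a q of 0.05 in 3 lists and missed it in Dam-Simba1 batch 2. It ranked 7088 of 22479 and 2078 of 35237 in Dam-Simba2, and 1426 of 17254 and 13034 of 21026 in Dam-Simba1. By mean percentile over the 4 lists it was number 693 of the 2492 regions that all lists share, while the region at 17831828 to 17832411 was number 2. By the lowest of the 4 percentiles their places were 929 and 3.

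**Figure D3:**
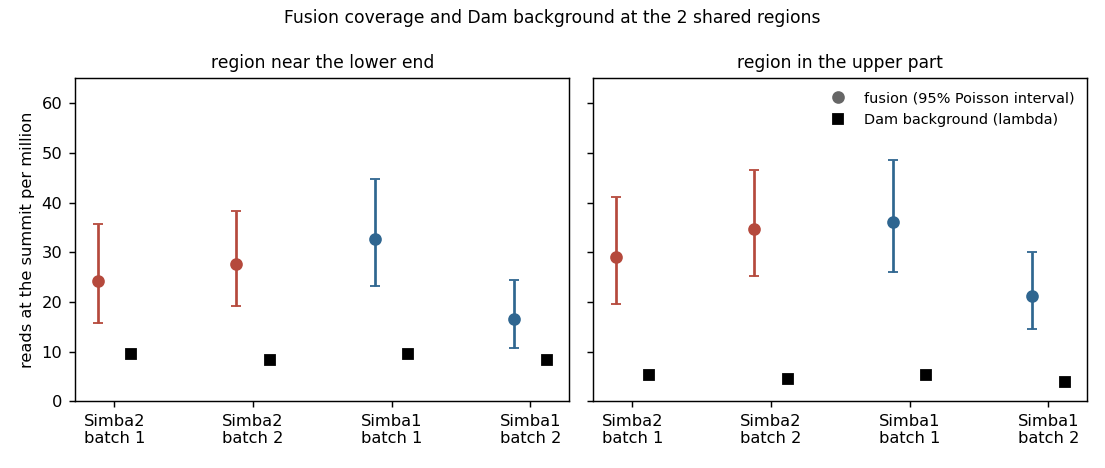
Circles give reads over the summit in RPM for each fusion library with the exact 95% Poisson interval. Squares give the Dam background (lambda) set for that summit, in RPM. In the upper part of the gene the Dam background is 3.97 to 5.40 and near the lower end it is 8.33 to 9.64, while fusion coverage spans 21.2 to 36.1 and 16.6 to 32.7.

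Summits of separate libraries fell close together at both regions. In the strongest region they were at 17832042 and 17832143 in Dam-Simba2 and at 17832043 and 17832099 in Dam-Simba1, a spread of 101 bp, and 435 bp (17831876 to 17832310) lay under all 4 peaks. Near the lower end the summits were at 17804900 and 17804864 in Dam-Simba2 and at 17804875 and 17804877 in Dam-Simba1, a spread of 36 bp, with 340 bp in common (17804741 to 17805080). Of the 2202 regions with exactly 1 peak in each list, the median spread was 192 bp. A spread of 36 bp or less was seen in 4.72% of them and one of 101 bp or less in 21.8%. Those regions were not matched to grh in peak strength. GATC sites, which all libraries share, were not placed, so their part in the summit positions was not tested. The 2 fusions of a batch share a Dam control, so these 4 peaks are not 4 separate comparisons.

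**Figure D4:**
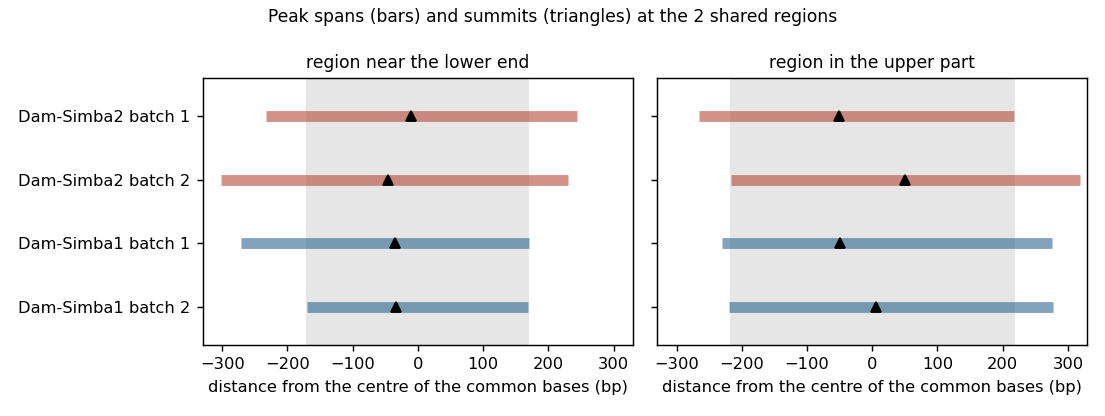
Bars are peak spans and triangles summits, by distance from the centre of the bases common to all 4 peaks (grey, bp). The summits lie within 36 bp of each other near the lower end of grh (left) and within 101 bp in the upper part (right).

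The remaining 21 peaks lay in regions that were missing from at least 1 list. One region, at 17822696 to 17823403, had peaks in both Dam-Simba2 libraries (22 and 24 reads; q of 0.0237 and 0.141) and in Dam-Simba1 batch 1 (30 reads; q of 0.000919), and none in Dam-Simba1 batch 2. Its Dam background was 8.06 and 11.4 RPM at the Dam-Simba2 summits and 8.07 at the Dam-Simba1 summit. A region at 17834676 to 17835023, 2.27 kb beyond the strongest one, was in both Dam-Simba2 lists, with 25 and 19 reads, folds of 3.54 and 2.31 and q values of 3.7e-05 and 0.00822. In batch 1 it was the next strongest Dam-Simba2 peak at grh, at rank 2248. The only other region in both Dam-Simba2 lists and neither Dam-Simba1 list, at 17810031 to 17810612, had 10 and 8 reads and q values of 0.134 and 0.00947.

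Besides the region in 3 lists, 3 regions held a peak of each fusion. The one at 17817760 to 17818321 was in Dam-Simba2 batch 2 (18 reads, fold 2.79) and in Dam-Simba1 batch 1 (19 reads, fold 2.37), which have separate Dam controls, with summits 2 bp apart (17818094 and 17818096). Those at 17803598 to 17804131 and at 17821403 to 17821814 were in both batch 1 lists, which share a Dam control. The region starting at 17803598 had 11 reads in Dam-Simba2 (q of 0.532) and 20 in Dam-Simba1 (q of 0.00474). The one starting at 17821403 had 17 reads in Dam-Simba2 (fold 1.48, q of 0.932) and 21 in Dam-Simba1 (fold 1.63, q of 0.437). By these q values the region starting at 17821403 was not set apart from Dam in either list. Of the 8 regions in a single list, 7 were from Dam-Simba2 batch 2, the longest list, with 8 to 28 reads each, and 1 was from Dam-Simba2 batch 1. No region was seen in Dam-Simba1 lists alone. This split by fusion was not made over all joined regions, and both Dam-Simba2 lists are longer than both Dam-Simba1 lists. It is therefore not read as particular to grh. A missing peak does not show missing signal, since coverage between peaks was not analysed here.

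Of all 29 peaks, 10 had a fold above the median of their list. A q of 0.05 or lower was reached by 4 of the 8 grh peaks in Dam-Simba2 batch 1, where 52.7% of all peaks did, and by 7 of 13 in Dam-Simba2 batch 2 (56.1% of all). In Dam-Simba1 it was reached by 4 of 6 in batch 1 (60.4% of all) and by 1 of 2 in batch 2 (42.4% of all). These shares are near those of the lists, so the count says nothing particular to grh. The median fold of grh peaks was 2.32 and 2.23 in Dam-Simba2 and 2.91 and 3.28 in Dam-Simba1, against 2.77 and 2.44, and 2.95 and 2.68, over the lists.

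Between batches of 1 fusion, 5 regions at grh recurred for Dam-Simba2, which is 62.5% of its batch 1 peaks and 38.5% of its batch 2 peaks; over the whole lists 51.9% and 33.3% of peaks met one of the other batch. For Dam-Simba1 the 2 regions described above recurred, 33.3% of batch 1 and 100% of batch 2 peaks, against 27.0% and 22.2% over the lists. The region at 17831828 to 17832411 is among the recurring regions of both fusions, and it recurs by the way grh was chosen. The shares at grh and over the lists are therefore not like for like. With so few peaks these shares are given as counts and were not tested.

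Dam without a partner methylates open chromatin most, but lambda at peak positions does not measure how accessible grh was. The Dam background is therefore given as a description. It was above the median of its list at 28 of the 29 peaks, though both fusions of a batch share 1 Dam library. No gene of like length is set beside grh for this value. The median grh peak stood at the 87.4 and 79.2 percentile of background in Dam-Simba2 and at the 88.0 and 94.0 percentile in Dam-Simba1 (batches 1 and 2). At the strongest region the percentiles were 80.2 and 77.9 in Dam-Simba2 and 79.9 and 89.2 in Dam-Simba1, and near the lower end 93.7 and 93.0, and 93.8 and 98.7. So the Dam background at the strongest region was above the median of each list, though lower than that of several weaker peaks of the gene. These are background values at peak positions, and whether they follow from activity of the locus or from the driver was not tested.

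The comparison of the fusions asked whether Dam-Simba2 marked more of grh than Dam-Simba1. Dam-Simba2 had 10.5 ± 3.54 peaks and Dam-Simba1 4.00 ± 2.83 (SD, n = 2 each), a difference of 6.5 that was 2 in batch 1 and 11 in batch 2 (exact two-sided permutation p = 0.333, adjusted p = 0.333 over 3 tests). Peaks covered 7.66% and 13.4% of the window in Dam-Simba2 and 6.02% and 1.92% in Dam-Simba1, which is 10.5 ± 4.06% against 3.97 ± 2.90% (SD, n = 2 each; exact two-sided permutation p = 0.333, adjusted p = 0.333). Set against list length, grh held 3.56 and 3.69 peaks per 10000 in Dam-Simba2 and 3.48 and 0.951 in Dam-Simba1, a mean difference of 1.41 (exact two-sided permutation, n = 2 each, p = 0.333, adjusted p = 0.333), with 0.0814 in batch 1 and 2.74 in batch 2.

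With 2 libraries a group 0.333 is the smallest p that such a test can give, so none could pass. Here that p says only that both Dam-Simba2 values were above both Dam-Simba1 values. The differences were small in batch 1 and rested on batch 2, where Dam-Simba1 had 2 peaks. With lists of equal length the difference in number was 1, and at a q of 0.001 or lower the difference in number was 0, with 2 and 2 peaks in Dam-Simba2 and 3 and 1 in Dam-Simba1. Per 10000 peaks at that q the difference was reversed, at -2.96 (exact two-sided permutation p = 0.333). Both Dam-Simba1 values were then above both Dam-Simba2 values. Per 10 kb, grh had 1.83 and 2.98 peaks in Dam-Simba2 and 1.37 and 0.458 in Dam-Simba1, against 1.64 and 2.62, and 1.26 and 1.53, on 2R. In Dam-Simba1 batch 2 grh was thus below its arm, and in the other 3 libraries above it.

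The number of peaks at grh was set beside that of genes of like length. Of 516 genes with spans of 0.67 to 1.5 times that of grh (27.9 to 62.45 kb), the median gene had 7 and 9 peaks in Dam-Simba2 and 5 and 6 in Dam-Simba1. Fewer peaks than at grh were found at 58.1% and 76.9% of them in Dam-Simba2 and at 51.6% and 3.29% in Dam-Simba1. More peaks were found at 31.8% and 16.7% in Dam-Simba2 and at 36.2% and 89.0% in Dam-Simba1, so grh was near the middle in both batch 1 libraries, high in Dam-Simba2 batch 2 and low in Dam-Simba1 batch 2. A peak in all 4 lists was present at 97.9% of these genes, and at 24.1% of all genes. At least 1 region common to all 4 lists lay at 52.3% of genes of like length and 12.6% of all genes, and 2 or more, as at grh, at 20.3% and 2.18%. As 1 of the 2 at grh is the region for which the gene was chosen, these shares are only a description.

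**Figure D5:**
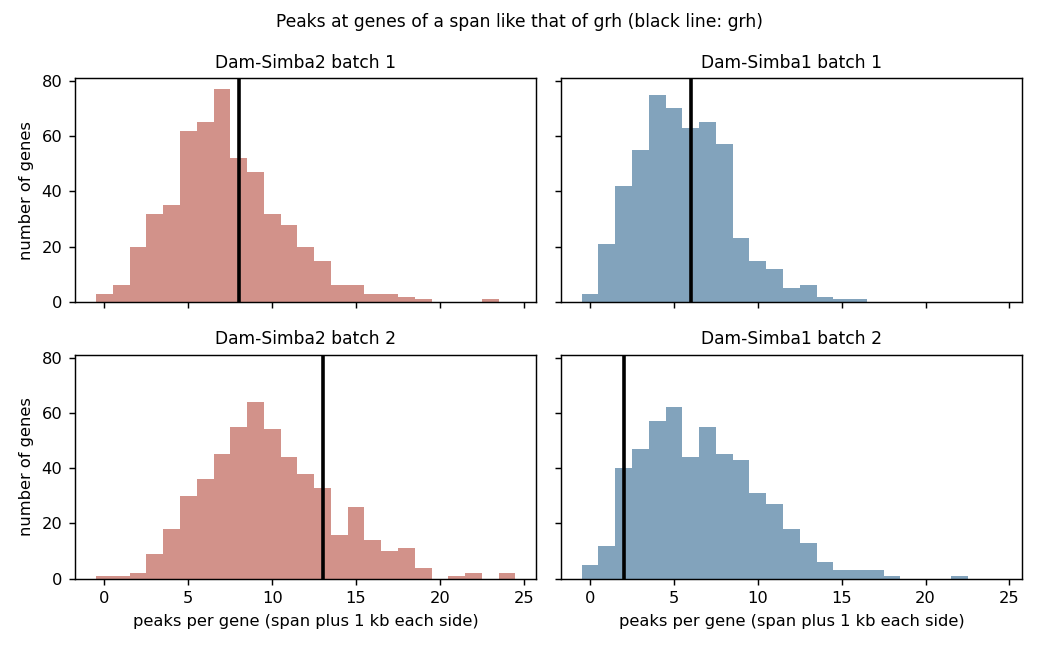
Histograms give the number of peaks per gene (span plus 1 kb each side) at the 516 genes with spans of 0.67 to 1.5 times that of grh, with grh as a black line. It had 8 and 13 peaks in Dam-Simba2 (left; medians 7 and 9) and 6 and 2 in Dam-Simba1 (right; medians 5 and 6).

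The rank of its best peak is the property that chose grh and is given as a description. The lowest percentile of its best peak over the 4 lists was 97.7, and of 505 genes of like length with a peak in all 4 lists 3 had a higher one (median 72.9). A best peak of q 0.05 or lower in each list was present at 11.5% of all genes.

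The genes most like grh, by distance between the percentiles of the best peak in the 4 libraries among those 505, were ND-15, unc-13, aus, CG46385 and Pura, at distances of 1.82 to 2.54 percentile points. 3 of them, ND-15, unc-13 and CG46385, had a lowest percentile of 97.8, above the 97.7 of grh. The best peaks of grh fall in 1 place by the way it was chosen, while place played no part in the choice of these 5, so their spreads are given with no comparison. The 4 best summits of ND-15 (2L, 114726 to 156030), which encodes a subunit of mitochondrial complex I, were spread over 4780 bp. Those of the other 4 genes, among them unc-13, a gene for a protein that primes synaptic vesicles, were spread over 19836 to 45448 bp.

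Neighbouring genes did not share the peaks. The window reached Dhit (17792870 to 17800677), the antisense RNA gene asRNA:CR45270 (17795886 to 17801924), which overlaps 793 bp of grh, and Orai (17843442 to 17860582), the gene of a calcium channel subunit. Dhit and asRNA:CR45270 had no peak in their spans in any list. Orai had 3 and 6 peaks in Dam-Simba2 and 2 and 1 in Dam-Simba1, all outside the grh window. Just beyond the window, the nearest peaks lay 10.3 and 10.3 kb (Dam-Simba2) and 10.4 and 20.8 kb (Dam-Simba1) below it, and 4.59 and 4.61 kb, and 4.58 and 16.0 kb, above it. Just inside, the outermost peaks lay 3.61 and 2.32 kb (Dam-Simba2) and 3.47 and 4.61 kb (Dam-Simba1) from the lower edge of the window.

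Other genes of NSC identity and of Grainyhead biology were set beside grh as a description, with no test. Of 26 NSC transcription factor and fate genes, 11 had a peak in all 4 lists (42.3%, median span 4.31 kb). So did 11 of 20 genes linked to Grainyhead in the fly (55.0%, 6.86 kb), against 24.1% of all genes. The lists have a q limit of 1, so these counts include weak peaks. A peak of q 0.05 or lower in each list was present at 8 of the 26 and 3 of the 20, against 11.5% of all genes. The genes named here are the highest and lowest by mean percentile of the best peak among the 4 taken from each list for a high one. The highest NSC gene was pros, which encodes a factor that promotes differentiation, with best-peak folds of 9.36 and 6.40 in Dam-Simba2 and 6.62 and 4.77 in Dam-Simba1. The lowest of the 4 was br, an ecdysone-response factor, with folds of 5.84 and 6.19 in Dam-Simba2 and 6.21 and 3.05 in Dam-Simba1. Among Grainyhead-linked genes the highest was Fas3, the gene of an adhesion protein of septate junctions, with folds of 3.89 and 4.44 in Dam-Simba2 and 4.99 and 2.56 in Dam-Simba1. The lowest of the 4 was Cad96Ca, a receptor tyrosine kinase gene of wound repair, with folds of 5.83 and 2.22 in Dam-Simba2 and 4.9 and 2.74 in Dam-Simba1. Spans were 79.1 kb for pros, 89.7 kb for br, 73.3 kb for Fas3 and 10.7 kb for Cad96Ca, and a longer gene has more room for peaks.

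Markers of other cell types also carried peaks. All 8 neuron markers (median span 20.8 kb), 2 of 7 glia markers (3.41 kb) and 2 of 6 muscle markers (16.8 kb) had a peak in all 4 lists, against 24.1% of all genes. With a peak of q 0.05 or lower in each list there were 7, 0 and 2 of them, against 11.5% of all genes. Of 6 genes taken as NSC markers only pros, by far the longest at 79.1 kb, had one in each list. The others span 2.28 to 14.8 kb. Of these, dpn, wor, mira and insc had peaks in 3 lists and ase in 2, and dpn, ase, wor and mira had none in Dam-Simba1 batch 2. Summed over those 6 genes there were 28 and 39 peaks in Dam-Simba2 and 20 and 11 in Dam-Simba1. Of these, pros alone held 20 and 24, and 15 and 8. Over elav, nSyb, brp and Syt1 of neurons there were 18 and 26, and 17 and 15. Peaks are methylated DNA and not RNA, so they do not measure which cells were present, and the part of other cells in the grh peaks was not tested.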

How the data were processed

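DamID libraries of Drosophila larval brains were analysed from deposited peak lists; the Dam libraries enter only as controls. The submitters' processing notes name bcl2fastq 2.19.0.316, Bowtie2 and dm6. MACS 3.0.0 was run by the authors on each fusion library with the Dam library of its batch as control, per the file headers. Replicates were not pooled. The headers also give single-read mode, 1 tag kept per position, fragment lengths of 272 to 279 bp, a q limit of 1 and an effective genome size of 2910000000 bp, above that of the fly, which lowers the genome-wide floor of lambda. The deposited pileup is a coverage signal scaled to the smaller library, the deposited fold is a ratio of pileup to lambda, each with 1 added, and the deposited p and q values are -log10 values of a Poisson test.

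Lambda was recovered from the fold; p values computed from it were within 0.01 of the deposited -log10 values for 99.3 to 100% of peaks. Peaks sharing 1 bp or more were joined. Gene spans are RefSeq's for this assembly, used here without strand or exons, so gene ends are named by coordinate. Simba2 and Simba1 libraries (2 each) were compared by exact permutation with Benjamini-Hochberg adjustment over 3 tests (scipy 1.17.1). The batch pairs libraries, per the labels and the shared Dam control; deviations from the mean of each fusion over 13396 bins of 10 kb correlated between fusions (Pearson r = 0.220, across bins, which are not replicates). Within-batch values are therefore printed. Alternatives were q limits, equal list lengths, other windows, a raised lambda, other overlap and rank rules, other span classes and single batches. The gene, its region and the lists were chosen with earlier results of these data known. Named genes were grh, genes reaching its window, the 5 most alike of like span, and up to 4 per list. List symbols W and Gliotactin were not matched and not used. Functions were tested on simulated intervals.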

Additional observations from a re-analysis of the deposited data

How the results depend on the processing

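At a q of 0.05 or lower, grh kept 4 and 7 peaks in Dam-Simba2 (batches 1 and 2) and 1 in Dam-Simba1 batch 2; at 0.001 or lower, 2 and 2 in Dam-Simba2 and 3 and 1 in Dam-Simba1. With lists of equal length (17254 peaks) Dam-Simba2 had 5 and 5. At 0.001 the Simba2 minus Simba1 difference was 0 in number, -0.172 percentage points in cover and -2.96 per 10000 peaks; at 0.05 it was 3, 2.92 and 0.980, and with equal lists 1 peak and 1.32 points. Without one batch the differences ranged from 2 to 11 peaks, 1.64 to 11.5 points and 0.0814 to 2.74 per 10000. As a replicate block the batches gave the same differences (6.5, 6.56 and 1.41), with a smallest possible sign-flip p of 0.5. Regions common to all 4 lists numbered 1 at either q limit. With 1 batch left out only the 2 lists of the other batch remain, which share a Dam control. Those had 5 regions in common in batch 1 and 2 in batch 2. Ranked by fold, the percentile of the strongest region was 92.9 in Dam-Simba2 batch 1 and 97.5 and 96.2 in Dam-Simba1; by pileup it was 94.3 and 98.3 in Dam-Simba2 and 97.2 and 99.3 in Dam-Simba1. Among genes of like span, the percentile of grh in peak number (genes with as many or fewer) moved in Dam-Simba2 from 68.2 and 83.3 to 80.8 and 59.7 at q of 0.001 or lower and to 54.1 and 61.6 with equal lists. At that q it went from 63.8 to 95.9 in Dam-Simba1 batch 1 and from 11.0 to 87.2 in Dam-Simba1 batch 2. Fewer peaks are compared under these limits. Under 65 of 92 alternatives, among them a raised lambda and other windows, results kept their direction or stayed within the spread between libraries. Exact p values ran from 0.333 to 1. The q limits, equal lists, windows and raised lambda for the difference in number, and a raised lambda elsewhere for the differences and common regions, were chosen after seeing the data.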
